A study of Homo sapiens with 15 samples.

Results

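This comparison set PC3 cells given a miR-224 mimic against PC3 cells given a miR-452 mimic, with 2 arrays on each side, and so 4 of the 15 arrays of the series. The members were chosen by the array titles, which carry the line, the time and the mimic, and no measured value entered that choice. PC3 is an established human prostate cancer line whose origin the labels give as a bone metastasis. Both groups were reverse transfected in RPMI medium with 10% serum, received 20 nM of their mimic with Lipofectamine and a medium change after 6 h, and gave total RNA at 48 h. The comparison groups were PC3 cells with a scrambled mimic (2 arrays, same dose and time), untransfected PC3 cells (2 arrays), and the 7 arrays of the same design in DU145, a prostate cancer line from a brain metastasis with 1 scrambled array. The series title names the GABRE, miR-452 and miR-224 locus and its hypermethylation in prostate cancer. The labels do not say whether replicate arrays came from separate cultures and every p-value here reflects array-to-array spread, which may be technical. They do not say how much mature miR-224 or miR-452 the cells held, and the uptake of the mimics was not measured on these arrays.

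A microRNA mimic is a short synthetic duplex that supplies a mature microRNA to the Argonaute proteins. The loaded strand pairs with messenger RNAs mostly through its seed, the bases near its 5′ end, and paired messages tend to be degraded or translated less. A comparison of 2 mimics therefore holds genes lowered directly by either one and genes that moved downstream of them. Long double-stranded RNA and some short duplexes can also be sensed by cytosolic receptors, whose signalling induces interferon-stimulated genes.

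The mature sequences are shown because the 2 mimics differ in these letters, with bases 2 to 8, the seed, in capitals. They are the 5p entries of RefSeq on GRCh38.p14, at chrX:151958628-151958652 and chrX:151959678-151959699, both on the minus strand and both from hairpins inside the span of GABRE.
hsa-miR-224-5p: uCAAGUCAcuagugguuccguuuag
hsa-miR-452-5p: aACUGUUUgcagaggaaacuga
The seeds carried the same base at 2 positions. Among 2545 mature entries no other had the miR-224 seed, while hsa-miR-4676-3p and hsa-miR-892c-3p shared that of miR-452. The labels give neither the arm nor the sequence of the mimics, and an entry that begins 1 base later would shift the miR-224 seed to AAGUCAC. Matches to these seeds in the 3′ ends of messages were not analysed here.

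Many interferon-stimulated, DNA replication and histone genes, and EPCAM, were higher with miR-452 than with miR-224, and for the replication and histone genes it was mostly the miR-224 arrays that lay away from scrambled. Many vesicle traffic and zinc finger genes, some ERK pathway feedback genes, SPARC and INHBA were higher with miR-224. IFI44L was 4.71-fold higher with miR-452, and COQ10B 3.65-fold higher with miR-224, on the deposited scale. All levels below are deposited log2 levels, all differences are miR-224 minus miR-452 on the log2 scale ± the standard error from limma with n = 2 arrays per mimic unless another pair is named, and a negative difference means a higher level with miR-452. A gene passed where the Benjamini-Hochberg adjusted p of limma over 18377 genes was under 0.05. Of the 18377 genes, 3400 passed (18.5%), 2299 of them higher with miR-224 (12.5%) and 1101 higher with miR-452 (5.99%). By more than 2-fold, 57 genes were higher with miR-224 and 42 with miR-452. The median over all genes was -0.02. The median absolute difference between the mimic means was 0.124, against 0.074 between the miR-224 arrays and 0.088 between the miR-452 arrays. Genes whose arrays of one mimic all lay above those of the other numbered 11467 (62.4%), so this separation alone marks little. The count depended on single arrays. It was 1642 without miR-224 array b, 1787 without miR-452 array c, 2454 without miR-224 array a and 2595 without miR-452 array b. Of the genes that passed, 67.6% were higher with miR-224, and 56.7% were after quantile normalization of the gene values.

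The deposited values of the PC3 arrays ran from 4.49 to 14.18, the array medians from 6.94 to 7.05. Precision was limited by having 2 arrays per group. The option used for the values is understood, though no label says so, to add 16 to the linear value first, and this would understate folds of weakly expressed genes. Markers of the line's origin were mixed. By percentile of all genes on each PC3 array, the epithelial keratins KRT8 and KRT18 lay at 98.1 to 99 and at 96 to 97.9, and EPCAM, also epithelial, at 37.1 to 80.4. Of the prostate genes, HOXB13 lay at 88.7 to 94, STEAP2 at 69.7 to 78.6 and SLC45A3 at 58.6 to 62. KLK3, the gene of prostate-specific antigen, lay at 27 to 31.5, KLK2 at 27.5 to 36.2 and KLK4 at 29.8 to 35.9. ACP3 lay at 11 to 15.3 and MSMB at 0.566 to 1.24. VIM, a mesenchymal gene, lay at 99.4 to 99.7 and CD44 at 98.8 to 99.3.

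The largest difference in favour of miR-224 was in COQ10B, a coenzyme Q-binding protein of mitochondria, which was at 9.99 and 9.88 with miR-224 and at 7.98 and 8.16 with miR-452, beside 9.47 and 9.19 with the scrambled mimic and 9.71 and 9.49 in untransfected cells. Both miR-452 arrays were lowest and both miR-224 arrays highest of the 8, with a difference of 1.87 ± 0.11 (adjusted p = 6.3e-06). SERINC1, a membrane protein named for serine incorporation, was at 9.85 and 10.03 with miR-224, 8.26 and 8.07 with miR-452, 9.47 and 9.35 with scrambled and 9.75 and 9.59 without transfection. It differed by 1.78 ± 0.10 (adjusted p = 5.9e-06). GBA2, the non-lysosomal glucosylceramidase, was at 10.20 and 10.13 with miR-224, 8.63 and 8.33 with miR-452, 8.86 and 8.81 with scrambled and 9.06 and 9.08 without transfection, a difference of 1.69 ± 0.10. For GBA2 the miR-224 arrays stood apart from all others, while for SERINC1 the miR-452 arrays did. TMEM184C differed by 1.61 ± 0.09, ADD3, an adducin of the membrane skeleton, by 1.44 ± 0.09, ANKRD36B by 1.31 ± 0.11 and DCAKD by 1.29 ± 0.10. ANKRD36B has near-identical relatives, and its signal may hold theirs. The secreted factors in this group were SPARC, a collagen-binding matrix protein (1.44 ± 0.10), INHBA, the beta A subunit of activin (1.28 ± 0.10), and C5, complement component 5 (1.24 ± 0.10). ARF4 (1.30 ± 0.08) and ARL1 (1.25 ± 0.11) are small GTPases of the Golgi.

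The largest differences in favour of miR-452 were mostly interferon-stimulated genes. Outside that family, EPCAM, an adhesion molecule of epithelial cells, was at 6.85 and 7.11 with miR-224 and at 8.98 and 9.01 with miR-452, beside 7.63 and 7.33 with scrambled and 8.18 and 7.87 without transfection. Its groups did not overlap and the difference was -2.02 ± 0.13 (adjusted p = 8.0e-06). KMO, the kynurenine 3-monooxygenase of tryptophan breakdown, was at 6.14 and 6.26 with miR-224 and at 7.67 and 7.71 with miR-452 (-1.49 ± 0.12, adjusted p = 1.7e-05), and IL13RA2, a decoy receptor for interleukin 13, at 6.07 and 5.91 against 7.30 and 7.55 (-1.44 ± 0.10, adjusted p = 1.4e-05). For both, the scrambled and untransfected arrays lay between 6.04 and 6.85, below both miR-452 arrays. C1orf116 differed by -1.41 ± 0.08. RNU5D-1, a copy of the U5 spliceosomal RNA, had a difference of -1.64 ± 0.44 (adjusted p = 0.023) from widely spread arrays, 7.24 and 5.98 with miR-224 against 7.66 and 8.84 with miR-452. It did not pass without miR-224 array b (-1.01, adjusted p = 0.186), without miR-452 array c (-1.05, adjusted p = 0.194) or with trend and robust moderation (adjusted p = 0.221), whereas the other 23 of these 24 genes passed under each alternative tried.

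Against the scrambled arrays, which both mimics share as control, the 24 genes lay on different sides. Each comparison is given as its own count, since the mimic arrays had chosen the genes. Of the 12 genes higher with miR-224, 10 passed as higher with miR-224 than with scrambled and 8 passed as lower with miR-452 than with scrambled, in comparisons in which 12.1% and 2.33% of all genes passed in those directions (16.8% and 5.22% in either direction). SPARC stood at 1.21 ± 0.10 with miR-224 and -0.23 ± 0.10 with miR-452, and ARF4 at 0.23 ± 0.08 and -1.07 ± 0.08. Of the 12 genes higher with miR-452, 11 passed as higher with miR-452 than with scrambled and 5 as lower with miR-224, against 2.89% and 4.65% of all genes. MX1 stood at 2.01 ± 0.14 with miR-452 and 0.31 ± 0.14 with miR-224, and IFI44L at 1.43 ± 0.10 and -0.81 ± 0.10. A difference between the mimics was thus made of a rise with one, a fall with the other, or both, depending on the gene.

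**Figure D1:**
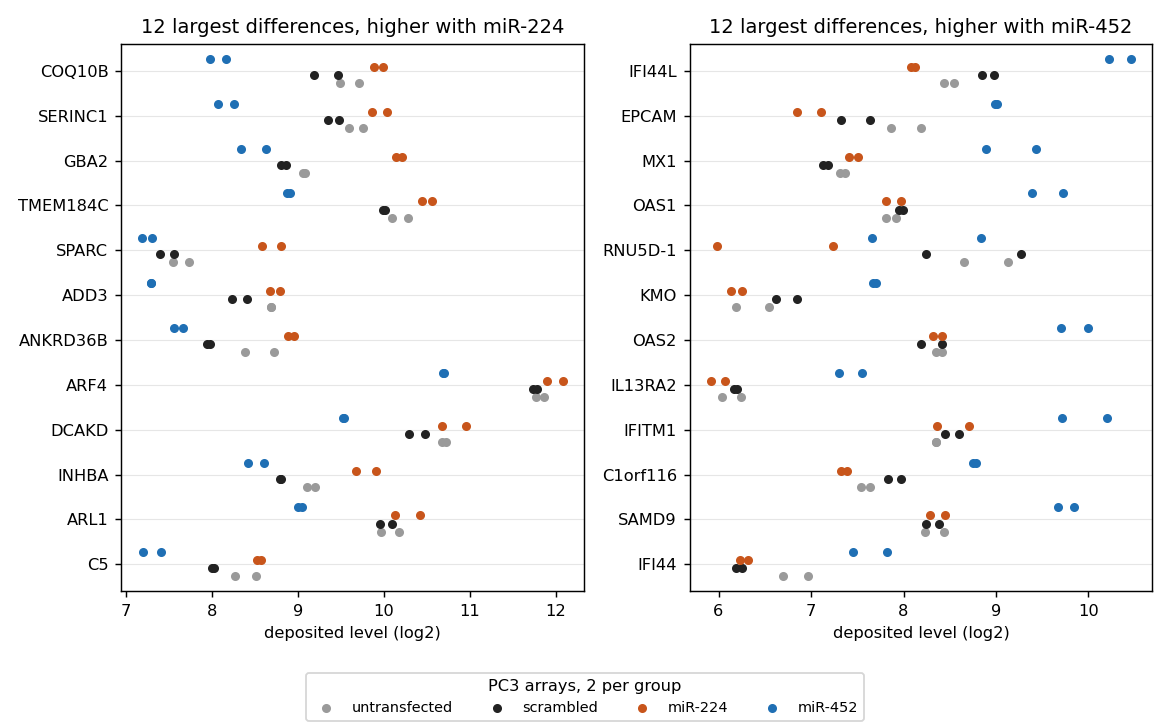
Deposited log2 level on each of the 8 PC3 arrays for the 12 genes with the largest difference in each direction, 1 point per array, coloured by group. In the left panel the miR-224 points lie above the miR-452 points, with COQ10B at 9.99 and 9.88 against 7.98 and 8.16, and in the right panel the miR-452 points lie above, with IFI44L at 10.46 and 10.22 against 8.13 and 8.08.

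Interferon-stimulated genes supplied many of the largest differences in favour of miR-452. Interferons signal through JAK kinases, STAT factors and IRF9 to a promoter element, the interferon-stimulated response element, and the genes it controls encode proteins that degrade viral RNA, block its translation or trap virus particles. Of 33 effector genes measured, 18 were higher with miR-452 (54.5%, against 5.99% of all genes), 2 were higher with miR-224 and 13 did not pass. Their median difference was -0.43, against -0.02 over all genes. IFI44L was at 8.13 and 8.08 with miR-224, at 10.46 and 10.22 with miR-452, at 8.85 and 8.98 with scrambled and at 8.55 and 8.43 without transfection. The miR-452 arrays were highest and the miR-224 arrays lowest of all 8, with a difference of -2.24 ± 0.10 (adjusted p = 1.1e-06).

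MX1, a dynamin-like GTPase against influenza and other viruses, was at 9.44 and 8.90 with miR-452 and at 7.41 and 7.51 with miR-224, while the 4 control arrays lay between 7.13 and 7.37. Its difference was -1.71 ± 0.14 (adjusted p = 1.8e-05). OAS1 and OAS2 make the 2′-5′ oligoadenylates that activate RNase L. OAS1 was at 9.72 and 9.39 against 7.81 and 7.97 (-1.67 ± 0.11, adjusted p = 8.0e-06), and OAS2 at 9.99 and 9.70 against 8.32 and 8.42 (-1.48 ± 0.11, adjusted p = 1.4e-05), with the miR-224 value second in each case. IFIT1, which binds RNA that lacks the cap of host messages, differed by -1.33 ± 0.09, IFITM1, which restricts virus entry, by -1.42 ± 0.15, SAMD9 by -1.38 ± 0.10 and IFI44 by -1.36 ± 0.12. IFI44 in untransfected cells, at 6.97 and 6.69, lay above both scrambled arrays, at 6.19 and 6.26, and below both miR-452 arrays, at 7.82 and 7.45. The 2 effectors higher with miR-224 were GBP2, a guanylate-binding protein (0.56 ± 0.09, adjusted p = 0.0013), and APOBEC3G, a cytidine deaminase (0.59 ± 0.13, adjusted p = 0.0074). They fall outside the rule for named genes and were chosen after their values were seen. Against scrambled, 21 of the 33 effectors passed as higher with miR-452, and with miR-224 6 passed as higher and 2 as lower. Among the 20 effectors that passed between the mimics, miR-452 array b was above array c in 18, by a median of 0.20 over the 20. The count of 18 effectors higher with miR-452 was between 17 and 20 under the alternatives tried.

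**Figure D2:**
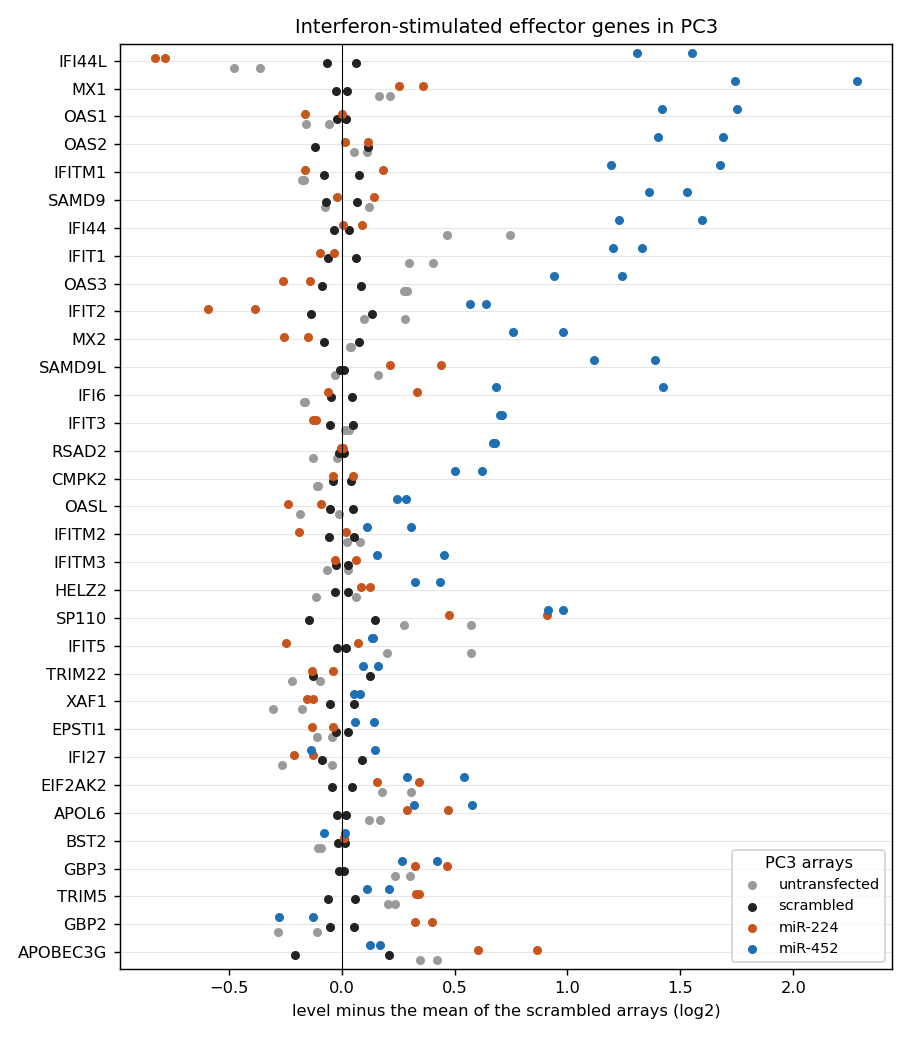
Level on each PC3 array minus the mean of the scrambled arrays, in log2 units, for the 33 interferon-stimulated effector genes, ordered by the difference between the mimics, 1 point per array. The miR-452 points lie to the right for the upper rows, led by IFI44L, and mix with the other groups in the middle, while GBP2 and APOBEC3G at the bottom have the miR-224 points to the right.

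The signalling genes of the same pathway moved less. Of 36 ligands, receptors, sensors, transducers and members of the ISG15 system, 9 were higher with miR-452 (25%, against 5.99% of all genes). A further 3 were higher with miR-224 (8.33%, against 12.5% of all genes) and 24 did not pass, with a median of -0.14. Among the 11 ligands and receptors, IFNAR2, a chain of the type I interferon receptor, was higher with miR-224, at 7.59 and 7.61 against 6.72 and 6.80 (0.84 ± 0.09, adjusted p = 0.00013). The miR-452 arrays were below both scrambled arrays, at 7.28 and 7.23. IFNB1, the gene of interferon beta, lay between 5.05 and 5.16 on all 8 arrays, near the low end of the scale, with a difference of -0.06 ± 0.08 (adjusted p = 0.68), and was named after its values were seen. Of the 11 RNA sensors and adaptors, 3 were higher with miR-452 and 1 with miR-224. IFIH1, the sensor MDA5, was at 7.52 and 7.72 with miR-452 against 6.91 and 6.90 with miR-224 (-0.72 ± 0.09, adjusted p = 0.00040), with scrambled at 6.45 and 6.42, so that both mimics lay above scrambled. RIGI, the sensor of short RNAs with a 5′ triphosphate, was at 8.99 and 8.92 against 8.38 and 8.37 (-0.58 ± 0.08, adjusted p = 0.00058). Of the 6 transducers, 2 were higher with miR-452: IRF9, the DNA-binding subunit of the interferon-induced factor, at 8.63 and 8.21 against 7.68 and 7.66 (-0.75 ± 0.12, adjusted p = 0.00099), and IRF7, at 8.43 and 8.35 against 7.91 and 7.85 (-0.51 ± 0.09, adjusted p = 0.0017). Of the 8 members of the ISG15 system and inhibitors, 3 were higher with miR-452. The count of 9 was 5 without miR-224 array a, and the count of 3 was 1 without either miR-224 array or without miR-452 array c.

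Presentation and inflammatory genes followed in part. Of 12 genes of MHC class I presentation, 4 were higher with miR-452 (33.3%, against 5.99% of all genes) and 8 did not pass. B2M, the light chain of MHC class I, was at 10.66 and 10.64 with miR-452 against 10.25 and 9.96 with miR-224 (-0.54 ± 0.10, adjusted p = 0.0023), and PSMB9, a subunit of the immunoproteasome, differed by -0.52 ± 0.10. ERAP1 and ERAP2, peptide-trimming enzymes, differed by -0.32 ± 0.09 and -0.54 ± 0.11. Without miR-452 array b neither enzyme passed (adjusted p = 0.183 and 0.0507) and the count was 2, and ERAP1 did not pass without miR-224 array a (adjusted p = 0.184) or b (adjusted p = 0.0643). Of 24 NF-kB and cytokine genes, 4 were higher with miR-452 (16.7%) and 2 with miR-224 (8.33%). Over all genes these shares were 5.99% and 12.5%. NFKBIA, the inhibitor that NF-kB itself induces, was at 9.57 and 9.79 with miR-452 against 9.08 and 9.13 with miR-224 (-0.58 ± 0.09, adjusted p = 0.0012). CXCL8 (-0.55 ± 0.09) and IL6 (-0.48 ± 0.09) were on the same side. LIF, a cytokine of the IL-6 family, was higher with miR-224, at 8.36 and 8.39 against 7.84 and 7.56 (0.68 ± 0.10, adjusted p = 0.00094), as was NFKBIZ (0.52 ± 0.07).

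The promoters shown are those of 3 effectors, with the largest differences among effectors higher with miR-452 whose promoter held the element described next. OAS1 had a larger difference than IFITM1, but its promoter lacked the element and is not shown. The capitals mark the core of the interferon-stimulated response element, GAAANN followed by GAAA on either strand, in the RefSeq window of 300 bases around the annotated start on GRCh38.p14. IFI44L is at chr1:78620198-78620497, MX1 at chr21:41420308-41420607 and IFITM1 at chr11:313790-314089, all on the plus strand.
IFI44L: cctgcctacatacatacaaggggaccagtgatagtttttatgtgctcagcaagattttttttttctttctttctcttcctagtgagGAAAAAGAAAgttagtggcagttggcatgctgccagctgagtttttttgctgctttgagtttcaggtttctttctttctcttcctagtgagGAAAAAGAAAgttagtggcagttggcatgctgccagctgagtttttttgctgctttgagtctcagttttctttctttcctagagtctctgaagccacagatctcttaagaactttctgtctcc
MX1: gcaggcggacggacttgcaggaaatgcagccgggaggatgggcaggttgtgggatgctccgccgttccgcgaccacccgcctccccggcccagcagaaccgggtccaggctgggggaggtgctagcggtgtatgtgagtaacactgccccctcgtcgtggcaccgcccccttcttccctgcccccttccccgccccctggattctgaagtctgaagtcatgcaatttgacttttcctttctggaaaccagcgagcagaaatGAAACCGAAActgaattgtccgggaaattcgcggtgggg
IFITM1: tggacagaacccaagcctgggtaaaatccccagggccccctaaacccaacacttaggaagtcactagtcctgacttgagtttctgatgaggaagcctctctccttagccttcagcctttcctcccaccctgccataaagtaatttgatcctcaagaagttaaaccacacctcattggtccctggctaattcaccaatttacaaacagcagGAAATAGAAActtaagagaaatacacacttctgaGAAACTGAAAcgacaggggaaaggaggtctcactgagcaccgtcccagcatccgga
The core was found in 3.65% of the 27305 promoters of the table. It was found in 17 of the 24 effectors with a promoter there, in 9 of the 14 higher with miR-452 and in 8 of the 10 that did not pass. Effectors with and without a difference between the mimics thus both carried it. A match is a description of these letters, not a binding site.

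Genes of DNA replication were higher with miR-452 than with miR-224, mostly because the miR-224 arrays lay below scrambled. These genes build and load the replicative helicase, make nucleotides and copy DNA, and many are controlled by E2F factors at the entry into S phase. Of 35 measured, 20 were higher with miR-452 (57.1%) and 15 did not pass, with a median of -0.31. RRM2, a subunit of ribonucleotide reductase, was at 8.51 and 8.54 with miR-224, 9.26 and 9.31 with miR-452, 9.43 and 9.46 with scrambled and 9.83 and 9.73 without transfection. The miR-224 arrays stood below all 6 others, with a difference of -0.76 ± 0.08 (adjusted p = 7.3e-05). TYMS, thymidylate synthase, was at 9.46 and 9.38 with miR-224 and 10.13 on both miR-452 arrays (-0.71 ± 0.08, adjusted p = 0.00013), and MCM2, of the helicase, at 8.35 and 8.46 against 9.08 and 9.03 (-0.65 ± 0.08, adjusted p = 0.00033). PRIM1, the DNA primase (-0.77 ± 0.10), and CCNE2, cyclin E2 (-0.75 ± 0.08), were on the same side. CCNE2 lay on both sides of scrambled, at -0.38 ± 0.08 with miR-224 and 0.36 ± 0.08 with miR-452. Against scrambled, 17 of the 35 passed as lower with miR-224 and 5 as higher with miR-452. The count of 20 was 13 without miR-224 array a and 13 without miR-452 array b.

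The promoter of PCNA, the sliding clamp of DNA polymerases, is shown as one that holds an E2F motif, TTTCCCGC or TTTGGCGC on either strand, with the match in capitals, at chr20:5126573-5126872 on the minus strand of GRCh38.p14. PCNA itself was at 9.11 and 9.05 with miR-224 against 9.55 and 9.61 with miR-452 (-0.50 ± 0.08, adjusted p = 0.0011), and was chosen after its values were seen.
PCNA: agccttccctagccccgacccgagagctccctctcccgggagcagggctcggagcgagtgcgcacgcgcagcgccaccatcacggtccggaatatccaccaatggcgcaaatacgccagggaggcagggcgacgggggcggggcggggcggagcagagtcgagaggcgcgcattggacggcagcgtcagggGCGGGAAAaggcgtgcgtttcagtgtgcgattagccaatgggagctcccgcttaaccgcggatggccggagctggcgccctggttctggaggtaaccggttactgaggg
Either motif was found in 2.31% of all promoters, in 10 of the 18 replication genes higher with miR-452 that had a promoter in the table, and in 7 of the 12 that did not pass.

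Replication-dependent histone genes, which are expressed in S phase and end in a stem-loop in place of a poly(A) tail, were on the same side. Of 55 measured, 25 were higher with miR-452 (45.5%) and 30 did not pass, with a median of -0.26. H3C7 was at 7.77 and 7.67 with miR-224, 8.40 and 8.44 with miR-452, 8.68 and 8.63 with scrambled and 8.73 on both untransfected arrays (-0.70 ± 0.08, adjusted p = 0.00013). H2BC3 was at 7.97 and 7.56 against 8.48 and 8.65 (-0.80 ± 0.13, adjusted p = 0.0013), and H3C10 differed by -0.72 ± 0.09, H1-2 by -0.56 ± 0.10 and H4C2 by -0.52 ± 0.09. The miR-224 arrays were lowest of the 8 for each of these 5 genes. Histone genes are near-identical, and signal of one may be counted for another. Among the 25 that passed, miR-224 array b was below array a in 24, by a median of 0.28, and the count was 10 without array b and 12 without miR-452 array c. Mitosis genes were mixed, with 5 of 29 higher with miR-452 (17.2%), 4 higher with miR-224 (13.8%) and a median of 0.01. Over all genes these shares were 5.99% and 12.5%. Against untransfected cells the medians of the list were -0.44 with miR-224 and -0.45 with miR-452. Its mean level with scrambled was also lower, at 9.36 and 9.35 against 9.76 and 9.65 without transfection. CDC20, the activator of the anaphase-promoting complex, differed by -0.56 ± 0.09 (adjusted p = 0.0010), KIF23, a kinesin of cytokinesis, by -0.52 ± 0.09, and CCNA2, cyclin A2, by 0.50 ± 0.10 (adjusted p = 0.0061). CCNA2 did not pass without miR-224 array b (adjusted p = 0.0683) or without miR-452 array b (adjusted p = 0.0518). The mitosis counts fell to between 0 and 3 without miR-224 array b, miR-452 array b or miR-452 array c, and the count of 4 was 1 without miR-224 array a.

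Epithelial adhesion and keratin genes were more often higher with miR-452. Of 21 measured, 8 were higher with miR-452 (38.1%), 1 was higher with miR-224 (4.76%) and 12 did not pass, with a median of -0.15. Over all genes these shares were 5.99% and 12.5%. Besides EPCAM, DSG2, a desmosomal cadherin, was at 8.54 and 8.56 with miR-224, 9.92 and 9.69 with miR-452, 9.53 and 9.44 with scrambled and 9.50 and 9.51 without transfection (-1.26 ± 0.09, adjusted p = 1.3e-05). The miR-224 arrays stood below all 6 others there. KRT7, a keratin of simple epithelia, was at 9.97 and 9.75 against 10.96 and 11.00 (-1.12 ± 0.09, adjusted p = 1.6e-05), with scrambled between them at 10.51 and 10.48. KRT80 differed by -0.68 ± 0.13 (adjusted p = 0.0046). CLDN4, a tight junction claudin, was higher with miR-224, at 8.99 and 8.93 against 8.47 and 8.34 (0.56 ± 0.09, adjusted p = 0.0013). The count of 8 epithelial genes was 5 without miR-224 array a, 4 without miR-224 array b, 4 without miR-452 array b and 5 without miR-452 array c.

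Mesenchymal and matrix genes went both ways. Of 29 measured, 6 were higher with miR-224 (20.7%) and 4 with miR-452 (13.8%), with a median of 0.04. Over all genes these shares were 12.5% and 5.99%. SPARC was at 8.80 and 8.58 with miR-224, 7.18 and 7.30 with miR-452, 7.55 and 7.40 with scrambled and 7.73 and 7.55 without transfection, so the miR-224 arrays stood above all others. CCN2, the connective tissue growth factor, was at 10.53 and 10.59 against 9.68 and 9.61 (0.91 ± 0.09, adjusted p = 5.6e-05). LAMC1 and LAMB1, chains of the laminins of basement membranes, differed by 0.90 ± 0.10 and 0.66 ± 0.09. LAMB1 was at 10.30 and 10.36 with miR-224, near the untransfected arrays at 10.42 and 10.37, with scrambled at 9.94 and 9.83. THBS1, thrombospondin 1, was at 8.97 and 8.99 with miR-224 against 9.74 and 9.82 with miR-452 (-0.80 ± 0.09, adjusted p = 0.00012) and the miR-452 arrays lay near the scrambled arrays, at 9.88 and 9.69.

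Of the ERK pathway feedback genes, some were higher with miR-224. ERK signalling induces phosphatases, Sprouty proteins and ETV factors, several of which damp the same pathway. Of 18 measured, 7 were higher with miR-224 (38.9%, against 12.5% of all genes) and the other 11 did not pass, with a median of 0.11 and 6 of the 18 below 0. SPRY4 was at 11.47 and 11.34 with miR-224, 10.34 and 10.16 with miR-452, 10.36 and 10.35 with scrambled and 10.84 and 10.79 without transfection (1.15 ± 0.09, adjusted p = 1.5e-05). The miR-224 arrays were highest, and the untransfected arrays came next. DUSP6, a phosphatase of ERK, was at 10.47 and 10.30 against 9.36 and 9.47 (0.97 ± 0.09, adjusted p = 4.0e-05), and ETV5 at 10.07 and 10.19 against 9.22 and 9.06 (0.99 ± 0.09, adjusted p = 4.8e-05). DUSP4 differed by 0.72 ± 0.09 and SPRY1 by 0.44 ± 0.08. With miR-224 they lay near untransfected cells, DUSP4 at 9.78 and 9.70 beside 9.70 on both, SPRY1 at 8.58 and 8.51 beside 8.52 and 8.61. The mean level of the 18 was 9.96 on both untransfected arrays and 10.08 and 10.06 with miR-224. With scrambled that mean was 9.82 and 9.75, and with miR-452 9.83 and 9.76. Against scrambled, 8 of the 18 passed as higher with miR-224 and 2 as higher with miR-452.

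Genes of apoptosis and its control were split. Of 23 measured, 6 were higher with miR-224 (26.1%, against 12.5% of all genes) and 4 with miR-452 (17.4%, against 5.99%). TNFRSF10B, the death receptor DR5, was at 10.26 and 10.40 with miR-224, 9.62 and 9.54 with miR-452 and 9.24 and 9.06 with scrambled (0.75 ± 0.09, adjusted p = 0.00020). PMAIP1, the BH3-only protein NOXA, was at 9.18 and 9.05 with miR-224, 8.59 and 8.48 with miR-452 and 7.82 and 7.72 with scrambled (0.57 ± 0.09, adjusted p = 0.00079), with untransfected cells at 8.50 and 8.57. For both genes the order was miR-224, miR-452, scrambled. APAF1, the core of the apoptosome, differed by 0.68 ± 0.09 and MDM2, a ubiquitin ligase, by 0.50 ± 0.08. API5, an inhibitor of apoptosis, was lower with miR-224, at 9.40 and 9.30 against 10.12 and 10.26 (-0.84 ± 0.10, adjusted p = 0.00025). The count of 4 was 2 without either miR-224 array or without miR-452 array c.

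Some genes differed from scrambled with both mimics and did not pass between them. AXL, a receptor tyrosine kinase, was at 11.75 and 11.88 with miR-224, 11.57 and 11.55 with miR-452, 10.32 and 10.16 with scrambled and 11.71 and 11.77 without transfection. The scrambled arrays were the ones apart, and between the mimics the difference was 0.25 ± 0.09 (adjusted p = 0.066). DICER1, which cuts microRNA precursors, was at 10.16 and 10.35 with miR-224, 10.15 and 10.04 with miR-452, 9.17 and 9.10 with scrambled and 9.45 and 9.25 without transfection. Both mimics lay above both controls there, with a difference of 0.16 ± 0.10 between them (adjusted p = 0.28). These 2 genes were chosen after their values were seen. Of 13 genes of the small RNA machinery, 4 were higher with miR-224 (30.8%) and 1 with miR-452 (7.69%). Over all genes these shares were 12.5% and 5.99%. AGO2, the slicing Argonaute, was at 10.14 and 10.09 with miR-224 against 9.55 and 9.41 with miR-452 (0.63 ± 0.09, adjusted p = 0.00066). Its miR-224 arrays lay near the untransfected ones, at 10.16 and 9.97, and its miR-452 arrays near scrambled, at 9.60 and 9.53. AGO4 differed by 0.63 ± 0.09 and AGO3 by 0.43 ± 0.08. XPO5, which exports precursors from the nucleus, was on the other side, at 9.10 and 9.07 against 9.64 and 9.62 (-0.55 ± 0.08, adjusted p = 0.00098).

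Genes that other studies reported as targets of each microRNA were examined next, from lists written from general knowledge. Of 28 reported miR-224 targets, 7 were lower with miR-224 than with miR-452 (25%, against 5.99% of all genes), 1 was higher and 20 did not pass. The median of the 28 was -0.03, against -0.02 over all genes. Against scrambled, 7 passed as lower and 3 as higher with miR-224, and 3 as lower and 1 as higher with miR-452. API5 is one of the 7 that were lower with miR-224 than with miR-452. TPD52, a protein of vesicle traffic often amplified in prostate cancer, was at 7.99 and 7.92 with miR-224, 8.72 and 8.82 with miR-452 and 8.56 and 8.65 with scrambled (-0.82 ± 0.08, adjusted p = 6.3e-05). MBD2, a reader of methylated DNA, was at 9.15 and 9.25 against 9.80 and 9.74 (-0.57 ± 0.08, adjusted p = 0.00075), and AP2M1, of the clathrin adaptor AP-2, at 10.87 and 10.93 against 11.50 and 11.36 (-0.53 ± 0.08, adjusted p = 0.00087). For TPD52, MBD2, AP2M1 and API5 the miR-224 arrays stood below all 6 others. RASSF8 also differed (-0.62 ± 0.08), with -0.19 ± 0.08 for miR-224 and 0.43 ± 0.08 for miR-452 against scrambled.

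Of 16 reported miR-452 targets, 6 were lower with miR-452 than with miR-224 (37.5%, against 12.5% of all genes) and 1 was higher. The median of the 16 was 0.05, with 8 members above 0 and 8 below. Against scrambled, 2 passed as lower and 1 as higher with miR-452, and 3 as lower and 5 as higher with miR-224. WWP1, a HECT-type ubiquitin ligase, was at 9.82 and 9.88 with miR-452, 10.68 and 10.82 with miR-224, 10.75 and 10.69 with scrambled and 10.65 and 10.58 without transfection (0.90 ± 0.08, adjusted p = 3.6e-05). Only the miR-452 arrays stood apart. The other 4 named members differed less from scrambled with miR-452: IGF1R (0.54 ± 0.09) stood at -0.18 ± 0.09, RAB11A (0.31 ± 0.08) at -0.02 ± 0.08, TCF4 (0.41 ± 0.10) at 0.08 ± 0.10 and MKRN1 (0.39 ± 0.10) at 0.14 ± 0.10, while miR-224 stood above scrambled in each. The count of 6 was 2 without miR-224 array b and 3 without miR-452 array c. SMAD4, reported for both microRNAs, stood at -0.49 ± 0.08 with miR-224 and -0.36 ± 0.08 with miR-452 against scrambled, with -0.13 ± 0.08 between them (adjusted p = 0.28). It was named after its values were seen.

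The genes around the microRNAs on chromosome X differed little. GABRE, the host gene and a subunit of GABA-A receptors, lay between 5.67 and 5.90 on all 8 arrays, with a difference of -0.02 ± 0.08 (adjusted p = 0.88). GABRA3 (-0.02 ± 0.08) and GABRQ (-0.10 ± 0.09), also receptor subunits, and NSDHL (-0.15 ± 0.08), of sterol synthesis, did not pass. CETN2, a centrin, was at 10.48 and 10.46 with miR-224 against 10.86 and 10.84 with miR-452 (-0.38 ± 0.07, adjusted p = 0.0039), with scrambled at 10.98 and 11.00.

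Genes of Golgi and vesicle traffic made the largest shift on the side of miR-224. The list held RAB and ARF small GTPases, which mark and form transport vesicles, and subunits of the COPI and COPII coats. It also held SERINC1, TMED2, TMED10 and ERGIC1, which are neither. Like the other lists, it was chosen with earlier results of these data known. Of 32 measured, 16 were higher with miR-224 (50%), 3 higher with miR-452 and 13 did not pass, with a median of 0.22. SERINC1 and ARF4 belong to it, and in both the miR-452 arrays were the ones apart. ARF4 was at 12.08 and 11.90 with miR-224, 10.68 and 10.69 with miR-452, 11.73 and 11.78 with scrambled and 11.85 and 11.76 without transfection. RAB21, an endosomal GTPase, was at 9.26 and 9.49 with miR-224, 8.42 and 8.22 with miR-452 and 8.48 and 8.36 with scrambled (1.05 ± 0.14, adjusted p = 0.00033). SAR1B, which starts the COPII coat, was at 10.04 and 10.21 against 9.34 and 9.33 (0.79 ± 0.10, adjusted p = 0.00035). For these 2 genes the miR-452 arrays lay near scrambled. The untransfected arrays lay above both groups, at 9.23 and 8.80 for RAB21 and at 9.96 and 9.67 for SAR1B. TMED10, a cargo receptor of early secretion, was lower with miR-224 than in all other groups, at 10.43 and 10.37 against 11.20 and 11.22 (-0.81 ± 0.08, adjusted p = 4.5e-05). Against scrambled, 16 of the 32 passed as higher and 3 as lower with miR-224, and 3 as lower with miR-452. The mean level of the 32 was 10.49 and 10.4 in untransfected cells and 10.47 and 10.49 with miR-224. It was 10.28 and 10.23 with scrambled and 10.19 and 10.15 with miR-452. The miR-224 arrays thus lay near the untransfected ones. The count of 16 was 10 without miR-224 array b and 10 without miR-452 array b.

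**Figure D3:**
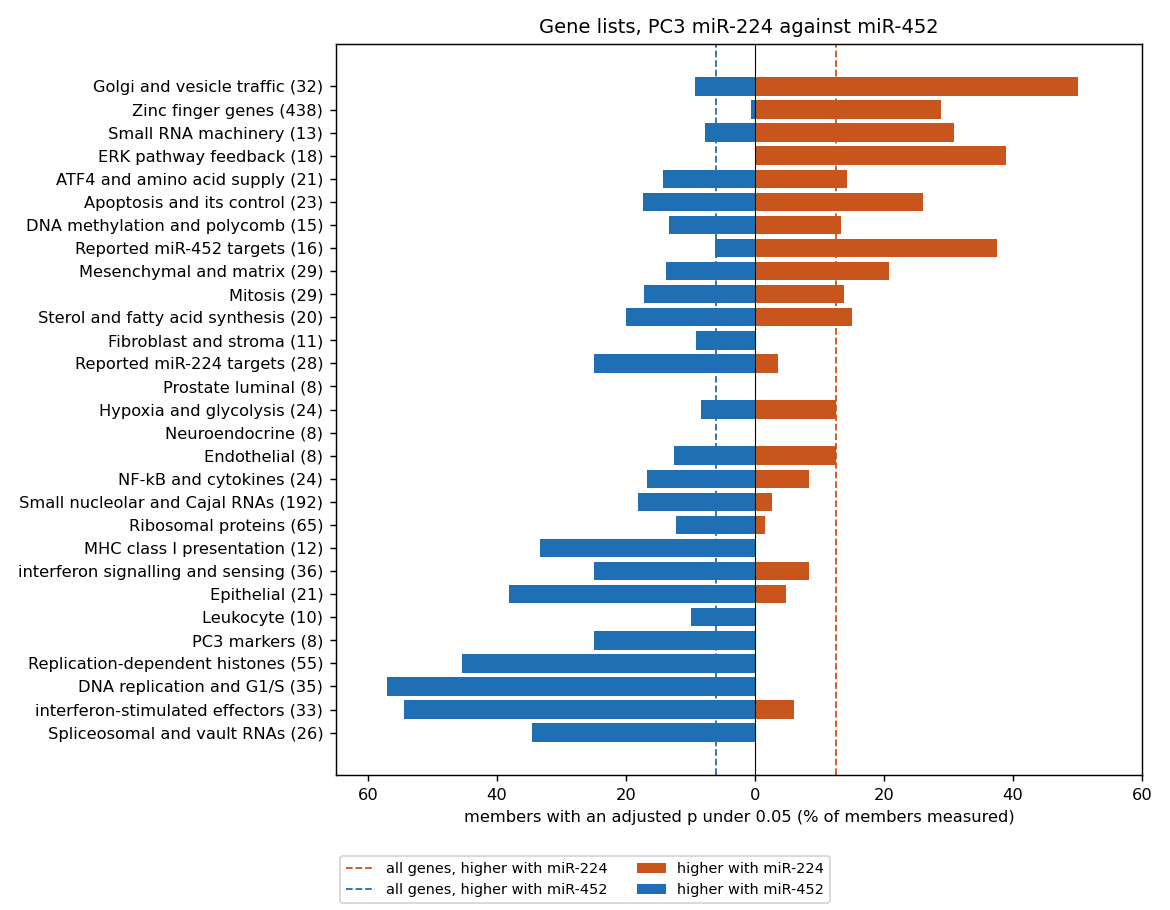
Share of the measured members of each gene list, in percent, that passed as higher with miR-224 (bars to the right) or with miR-452 (bars to the left), with the number measured in brackets and dashed lines at the shares of all genes, 12.5% and 5.99%. Replication, interferon effector and histone genes reach furthest to the left, with 57.1%, 54.5% and 45.5%, and vesicle traffic genes furthest to the right, with 50%.

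Zinc finger genes, most of them transcription factors and many with a repressive KRAB domain, leaned to miR-224 as a family. Of 438 with ZNF symbols, 126 were higher with miR-224 (28.8%), 3 were higher with miR-452 and 309 did not pass, with a median of 0.15. ZNF678 was at 8.19 and 8.27 with miR-224 against 7.41 and 7.20 with miR-452 (0.93 ± 0.10, adjusted p = 7.5e-05). ZNF652 was at 10.14 and 10.22 against 9.41 and 9.38 (0.78 ± 0.08, adjusted p = 7.8e-05), and ZNF841 differed by 0.78 ± 0.08. In these 3 the miR-452 arrays lay near scrambled, whereas ZNF248, at 10.26 and 10.29 against 9.57 and 9.56 (0.71 ± 0.08), had them below scrambled at 10.07 and 10.17. ZNF217 differed by 0.80 ± 0.09. Against scrambled, 140 of the 438 passed as higher and 5 as lower with miR-224, and 3 as higher and 5 as lower with miR-452. The mean level of the 438 was 7.45 and 7.37 in untransfected cells and 7.44 and 7.49 with miR-224. It was 7.3 and 7.24 with scrambled and 7.3 and 7.26 with miR-452. The miR-224 arrays thus lay near the untransfected ones, and the scrambled and miR-452 arrays lay below. The count of 126 was 56 without miR-224 array b and 72 without miR-452 array c. With quantile normalization 14 of the 438, in place of 3, were higher with miR-452, and the family's median was 0.13.

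Short structural RNAs and ribosomal protein genes lay on the side of miR-452, with calls that rested on single arrays. Small nucleolar and Cajal body RNAs guide the modification of ribosomal and spliceosomal RNA. Of 192 measured, 35 were higher with miR-452 (18.2%) and 5 with miR-224 (2.6%), with a median of -0.11. Over all genes these shares were 5.99% and 12.5%. SNORA23 was at 11.54 and 11.25 with miR-224 against 12.05 and 12.47 with miR-452 (-0.86 ± 0.13, adjusted p = 0.00098), and SNORA24 at 9.12 and 8.53 against 9.65 and 10.16 (-1.08 ± 0.18, adjusted p = 0.0016). Among the 40 that passed, miR-224 array a was above b in 34, and the median of array b minus array c of miR-452 was -0.38. The count of 35 was 4 without miR-224 array b and 4 without miR-452 array c. Of 26 spliceosomal and vault RNAs, 9 were higher with miR-452, with a median of -0.51, and the count was 2 without miR-224 array b and 1 without miR-452 array c. RNVU1-6, a variant U1 RNA, was at 8.01 and 7.40 against 8.39 and 8.46 (-0.72 ± 0.15, adjusted p = 0.0054). For all 9, miR-224 array a was above array b, by a median of 0.70. Many of these genes have near-identical copies, so their values are uncertain. Ribosomal protein genes had 8 of 65 higher with miR-452 (12.3%, against 5.99% of all genes) and 1 with miR-224 (1.54%, against 12.5%), with a median of -0.13. RPS16 was at 9.60 and 9.56 against 10.07 and 9.99 (-0.45 ± 0.08, adjusted p = 0.0023). Of the named ones higher with miR-452, only RPS16 kept its call without miR-224 array b. RPL11, RPL22 and RPS20 stayed on that side there, at -0.28, -0.36 and -0.30, but did not pass.

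**Figure D4:**
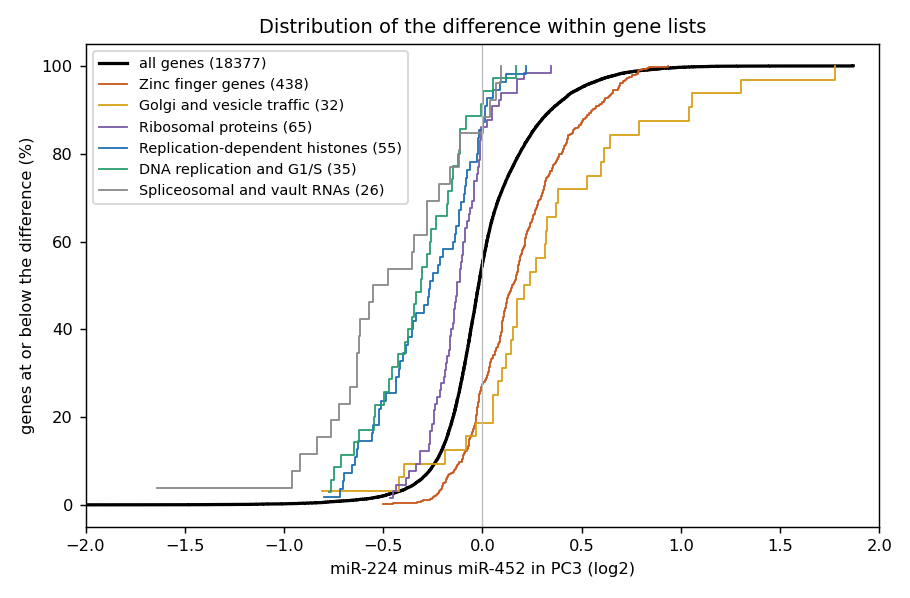
Cumulative share of genes, in percent, at or below each miR-224 minus miR-452 difference in log2 units, for all genes and 6 gene lists, with the number of genes in brackets. The curves of zinc finger and vesicle traffic genes lie to the right of all genes, with medians of 0.15 and 0.22 against -0.02, and those of ribosomal, histone, replication and spliceosomal genes to the left, with medians from -0.13 to -0.51.

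Metabolic lists were mixed. Over all genes 12.5% were higher with miR-224 and 5.99% with miR-452, to be set beside each share in this paragraph. Of 24 hypoxia and glycolysis genes, 3 were higher with miR-224 (12.5%) and 2 with miR-452 (8.33%), near the shares of all genes. BNIP3, a mitophagy receptor induced by hypoxia, was at 11.40 and 11.45 with miR-224 against 11.04 and 11.07 with miR-452 (0.38 ± 0.07, adjusted p = 0.0044), and PDK1, which shuts pyruvate out of the citric acid cycle, at 9.35 and 9.24 against 9.80 on both (-0.51 ± 0.08, adjusted p = 0.00096). Of 20 genes of sterol and fatty acid synthesis, 3 were higher with miR-224 (15%) and 4 with miR-452 (20%). FDPS, farnesyl diphosphate synthase, was at 8.22 and 8.30 against 7.68 and 7.69 (0.58 ± 0.08, adjusted p = 0.00054), and SQLE, squalene epoxidase, at 9.76 and 9.83 against 10.28 and 10.35 (-0.52 ± 0.08, adjusted p = 0.0013). Of 21 genes of the ATF4 response and amino acid supply, 3 were higher with each mimic (14.3%). CTH, which makes cysteine from cystathionine, was at 7.14 and 7.06 with miR-224 against 8.07 and 8.10 with miR-452 (-0.99 ± 0.09, adjusted p = 5.2e-05), and SLC7A11, the cystine importer, was on the other side, at 10.03 and 9.95 against 9.49 and 9.46 (0.52 ± 0.07, adjusted p = 0.00069). Of 15 DNA methylation and polycomb genes, 2 were higher with each mimic (13.3%). TET1, which oxidises 5-methylcytosine, was at 8.78 and 8.79 against 8.33 and 8.34 (0.45 ± 0.08, adjusted p = 0.0023), and DNMT1, the maintenance methyltransferase, at 10.31 and 10.34 against 10.74 and 10.62 (-0.36 ± 0.08, adjusted p = 0.0086). DNMT1 did not pass without either miR-224 array (adjusted p = 0.0567 and 0.057) or without miR-452 array b (adjusted p = 0.0696). Without miR-224 array b the counts higher with miR-224 were 0 for hypoxia, 1 for sterol and 1 for ATF4 genes, the hypoxia count was 1 without miR-452 array c, and the sterol count higher with miR-452 was 2 without miR-224 array a or miR-452 array b.

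Markers of other cell types gave few calls. Of 10 leukocyte genes, CD68, a lysosomal glycoprotein, was higher with miR-452, at 10.29 on both arrays against 9.54 and 9.49 (-0.78 ± 0.08, adjusted p = 7.6e-05), while PTPRC, the leukocyte antigen CD45, differed by -0.03 ± 0.08. The summed log2 level of the 10 was 61.7 and 61.6 with miR-224 and 63.1 and 64.1 with miR-452. Of 11 fibroblast genes, LUM, lumican, was higher with miR-452 (-0.48 ± 0.09) at levels between 5.00 and 5.61, and the sum was 71.8 and 72.8 against 73.1 and 72.7. Of 8 endothelial genes, KDR was higher with miR-224 and ESAM with miR-452 (0.38 ± 0.11 and -0.41 ± 0.08), with sums of 54.1 and 54.3 against 54.8 and 54.3. KDR did not pass without miR-224 array b (adjusted p = 0.245), miR-452 array b (adjusted p = 0.0658) or miR-452 array c (adjusted p = 0.15), nor LUM without miR-452 array c (adjusted p = 0.0524). By limma 0 of 8 prostate luminal genes and 0 of 8 neuroendocrine genes passed, and 2 and 0 had an unadjusted p under 0.05. The part of these markers in the other results was not tested.

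In DU145 the same comparison gave fewer calls and a partly shared set. There 1086 of 18377 genes passed (5.91%), 649 higher with miR-224 (3.53%) and 437 higher with miR-452 (2.38%), from 2 arrays per mimic. No array is shared between the lines, and the values of each line were normalized apart. Across genes the differences in the lines correlated with r = 0.41 and rho = 0.31, as a description only, because genes do not count as replicates. Of the genes that passed in PC3, 521 also passed in the same direction in DU145, which is 15.3% of the PC3 genes and 48% of the DU145 genes, and 28 passed in opposite directions. Among the largest PC3 differences, COQ10B was 1.12 ± 0.08, SERINC1 0.95 ± 0.11, TMEM184C 1.13 ± 0.10 and DCAKD 1.45 ± 0.11 in DU145. EPCAM was -1.27 ± 0.17 and C1orf116 -1.10 ± 0.09 there, and API5, named as a list member, -1.51 ± 0.10. All 7 passed in both lines and in the same direction, but other named genes did not. In DU145 SPARC was -0.05 ± 0.13 (adjusted p = 0.94), C5 0.06 ± 0.09 (adjusted p = 0.86) and ANKRD36B 0.35 ± 0.12 (adjusted p = 0.13). Of the ERK pathway feedback genes, SPRY4 was 0.01 ± 0.14 and DUSP6 -0.11 ± 0.11 there, and neither passed. The DU145 count was 254 without miR-224 array c, 324 without miR-224 array a, 612 without either untransfected array and 2152 without miR-452 array c. Which side had more calls also depended on single arrays, with 454 higher with miR-224 and 787 higher with miR-452 without miR-452 array a, and 148 and 176 without miR-224 array a, 124 and 130 without miR-224 array c.

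The difference itself differed between the lines for 1050 genes (5.71%), 626 with a more positive value in PC3 (3.41%) and 424 with a more negative one (2.31%), by a contrast over all 15 arrays. Interferon-stimulated genes were prominent among them. IFI44L was -2.24 ± 0.10 in PC3 and 0.04 ± 0.10 in DU145, where its 7 arrays lay between 5.23 and 5.70, and the differences differed by -2.28 ± 0.14 (adjusted p = 1.7e-06). OAS1 differed between lines by -1.56 ± 0.15 (adjusted p = 0.00023), with 6.30 on both DU145 miR-224 arrays and 6.54 and 6.29 on the miR-452 arrays. Of the 33 effectors, 16 had a more negative and 2 a more positive difference in PC3, and in DU145 alone 2 passed as higher with miR-452, with a median of -0.09. SAMD9 was -0.71 ± 0.11 in DU145 (adjusted p = 0.0063), in the direction of PC3. Levels of several of these genes were low in DU145, and IL13RA2, with a difference between lines of -1.44 ± 0.13, lay between 4.67 and 4.77 on all DU145 arrays, at the low end of the scale.

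On the side of miR-224, INHBA was 1.28 ± 0.10 in PC3 and -0.02 ± 0.09 in DU145, B3GALNT1, a glycosyltransferase, 1.04 ± 0.09 and -0.32 ± 0.09, and GRAMD1B, a cholesterol transfer protein, 0.86 ± 0.08 and -0.48 ± 0.09. GRAMD1B passed in both lines with opposite signs: 10.97 and 10.96 with miR-224 against 10.19 and 10.01 with miR-452 in PC3, and 10.31 and 10.39 against 10.79 and 10.88 in DU145. TMEM156 was 0.31 ± 0.11 in PC3, where it did not pass (adjusted p = 0.069), and -1.09 ± 0.09 in DU145. OXTR, the oxytocin receptor, was -0.94 ± 0.08 in PC3 and 0.15 ± 0.09 in DU145. Of the histone genes, 16 had a more negative difference in PC3, and of the zinc finger genes 44 had a more positive and 4 a more negative one. Of the 35 replication genes 5 had a more negative difference in PC3, and RRM2, at -0.76 ± 0.08 and -0.68 ± 0.08, did not pass (adjusted p = 0.73 for the difference between lines). The count of 1050 was 286 without PC3 miR-224 array b, 422 without PC3 miR-452 array c, 634 without PC3 miR-452 array b, 380 without DU145 miR-224 array c, 629 without DU145 miR-224 array a and 1573 without DU145 miR-452 array a. Without DU145 miR-452 array c 370 were more positive and 539 more negative in PC3, the opposite balance. The 8 genes with the smallest p passed under every alternative tried in which they were tested.

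**Figure D5:**
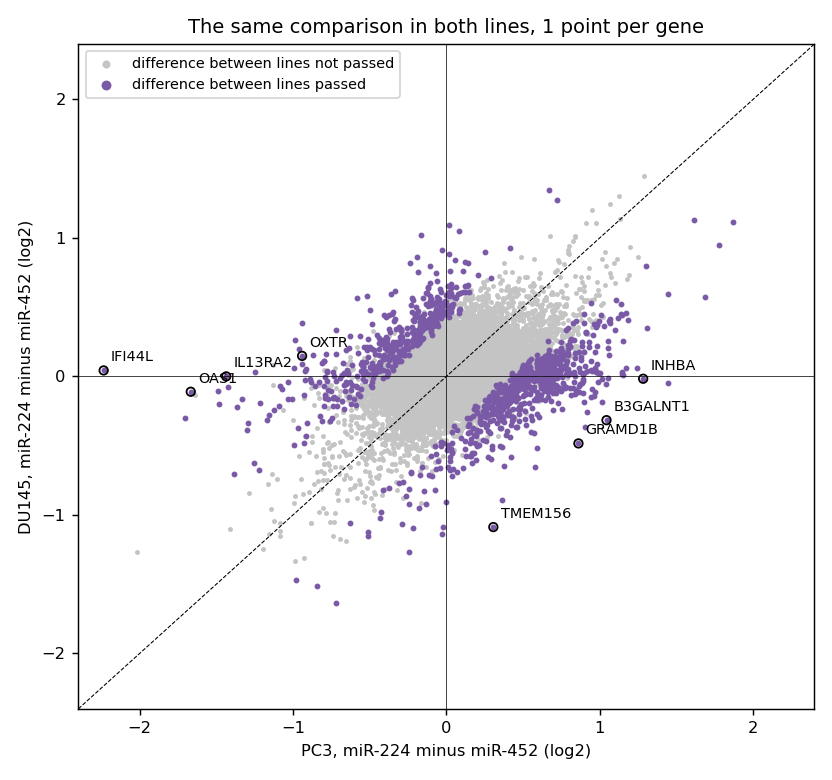
Difference between miR-224 and miR-452 in DU145 against that in PC3, both in log2 units, 1 point per gene, with the 1050 genes whose difference differed between the lines in purple, the diagonal of equal differences dashed, and the 8 genes with the smallest p circled and named. IFI44L, OAS1 and IL13RA2 lie far to the left near 0 in DU145, and TMEM156 lies low in DU145 at -1.09 and at 0.31 in PC3.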

How the data were processed

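Each array (Affymetrix Human Gene ST) was hybridised with RNA labelled from 100 ng of total RNA. The authors deposited log2 values, summarised by RMA16 in GeneSpring GX 11.0 with PC3 and DU145 normalized apart, per the series' design text. That procedure usually subtracts background, gives all arrays of a set the same distribution and summarises probes, so a change shared by most genes would not be seen. The genome build and probe set definition are not given in the sources used here.

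Of 28869 features, 19310 carried 1 gene symbol and were averaged to 18377 genes (685 had several features), with symbols updated by Entrez number in the RefSeq gene table (19279 matched) and no filter on level. The 1752 features with several symbols and the 7807 with none were tested apart, and 3.14% and 0.935% of them passed. Linear models were fitted in R 4.3.3 by limma 3.58.1, with statmod 1.5.0 installed. They had 4 group means over the 8 PC3 arrays (4 residual degrees of freedom), the same over the 7 DU145 arrays (3), and 8 group means over all 15 arrays for the difference between lines (7), two-sided and with Benjamini-Hochberg adjustment. The single DU145 scrambled array was taken to vary like the other DU145 groups. The fit was tested on simulated data. Promoters and microRNAs came from RefSeq tables on GRCh38.p14, in which 14210 of the measured genes had a promoter.

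The comparison and the gene lists were chosen with earlier results of these data known. Named were the 12 largest differences each way among genes that passed and whose arrays did not overlap, up to 5 members of each list with the smallest p, the host locus, and the 8 genes with the smallest p between lines. Alternatives were a filter at percentile 20 of mean level, quantile normalization, 16 subtracted before the log2, trend and robust moderation, the letter of the array as a block, other arrays in the fit, features one by one, and each array left out.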

Additional observations from a re-analysis of the deposited data

Results flagged for a closer look

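The comparison of the mimics was tested for a difference between PC3 and DU145 by a contrast over all 15 arrays, and 1050 genes passed. The 8 with the smallest p, as the PC3 difference minus the DU145 difference on the log2 scale, were IFI44L at -2.28, GRAMD1B at 1.35, B3GALNT1 at 1.36, IL13RA2 at -1.44, OAS1 at -1.56, INHBA at 1.30, OXTR at -1.09 and TMEM156 at 1.39. TMEM156 differs from the other 7 in that it passed in DU145 and not in PC3. IFI44L and IL13RA2 had DU145 levels near the low end of the scale.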

How the results depend on the processing

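Of the 140 named genes 135 passed in PC3, and 102 of these passed under every alternative tried. No named gene changed direction, but the balance of calls in DU145, 649 higher with miR-224 against 437, turned to 454 against 787 without miR-452 array a, and that between lines from 626 against 424 to 370 against 539 without DU145 miR-452 array c. The PC3 count of 3400 lay between 3157 and 3735 under other filters, scalings, moderation and sets of arrays. Leaving out 1 array gave 1642 to 3816 genes in PC3, 254 to 2152 in DU145, 286 to 1573 for the difference between lines, 13 to 21 replication genes, 10 to 25 histone genes and 56 to 135 zinc finger genes on the stated side. The difference between lines called 1597 genes with quantile normalization and 671 with 16 subtracted before the log2. With the letter of the array titles as a replicate block the counts were 1952 in PC3, 115 between the lines, 10 replication genes and 73 zinc finger genes. The letters pair no samples by the labels, the mimics share only letter b, and deviations of the b arrays correlated between -0.15 and 0.27. Ribosomal protein genes higher with miR-452 numbered 14 with quantile normalization and 13 with trend and robust moderation in place of 8, and small nucleolar RNAs 18 in place of 35 with the latter. The causes were not tested. Weakly expressed genes near the low end of the scale can show no fall.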

Other observations

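Promoters of genes higher with miR-224 had a median GC content of 65.3% and those of genes higher with miR-452 63.2%, beside 62.7% for genes that did not pass, over the protein-coding genes with a promoter in the table. Of 175 genes annotated as small nucleolar RNA 29 were higher with miR-452 and 5 with miR-224. Of 20 small nuclear RNAs 9 were higher with miR-452, and of 631 long noncoding RNAs 23 were higher with miR-224 and 16 with miR-452. In either direction 19.4%, 45% and 6.18% of these 3 classes passed, against 18.5% of all genes. Of all genes, 12.5% were higher with miR-224 and 5.99% with miR-452. Long noncoding RNAs were thus called less often than genes in general. Measured against untransfected cells, 1780 genes passed with miR-224 and 4080 with miR-452, whereas against scrambled 3080 and 959 did, so which mimic had more calls depended on the control.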
